A study of Homo sapiens with 8 samples.

Results

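The genes described here encode 10 enzymes that make, convert or conjugate androgens: the 17beta-hydroxysteroid dehydrogenases HSD17B4 and HSD17B10, the steroid 5alpha-reductase genes SRD5A1 and SRD5A3, steroid sulfatase (STS), the aldo-keto reductases AKR1C2 and AKR1C3, and the UDP-glucuronosyltransferases UGT2B11, UGT2B15 and UGT2B17. They were taken by gene symbol, 10 of the 16126 genes listed in any of the 3 expression tables. Polyadenylated RNA was sequenced from prostate cancer cell lines that the labels give as resistant or sensitive to enzalutamide, a drug that blocks the androgen receptor. Resistant C4-2BENZR cells and sensitive C4-2B cells, both carrying luciferase and GFP transgenes, gave 2 libraries each. CWR-R1ENZR and CWR-R1 gave 1 library each, as did VCaPENZR and VCaP, and no transgene is labelled for these 4. C4-2B derives from LNCaP cells, CWR-R1 from a relapsed xenograft and VCaP from a vertebral metastasis. The labels give neither how resistance was obtained nor whether drug was present at harvest. Each resistant line is a single line, so that its resistance and any other property of that line cannot be told apart.

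Androgens reach prostate cells from the blood as testosterone and as adrenal precursors, of which dehydroepiandrosterone sulfate is the most abundant. Sulfatase frees the precursor, and AKR1C3 and dehydrogenases other than HSD17B4 and HSD17B10 carry it towards testosterone. A 5alpha-reductase turns testosterone into dihydrotestosterone, the more potent ligand of the androgen receptor. AKR1C2 reduces dihydrotestosterone to a weak androgen, and UGT2B15 and UGT2B17 attach glucuronic acid to dihydrotestosterone and its metabolites, which inactivates them for export; androgen lowers the transcripts of both genes in LNCaP cells.

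The libraries held 14503586 to 20248655 reads in the listed genes, and a level below is the deposited signal, reads scaled by library size and close to CPM. The 3 tables were normalized separately, so that each difference between resistant and sensitive cells was taken within a table. The test between CWR-R1 and C4-2B compares 2 such differences in 1 fit. Levels set side by side across tables may also differ by scaling. Of the 10 genes, 9 were listed in the C4-2B table, 8 in the CWR-R1 table and 9 in the VCaP table, and 7 in all 3. The library labelled VCaPENZR stood apart from its label. Over 12868 shared genes its log2 levels correlated at 0.940 with CWR-R1ENZR and at 0.728 with VCaP, and ERG, the fusion oncogene of VCaP cells, was at 0.179 (3 reads) in it against 428 in VCaP. All 8 markers of prostate luminal epithelium were listed in every table, but not at like levels: KLK3 was at 49.2 and 48.1 in C4-2BENZR against 2067 and 2024 in C4-2B, at 0 in CWR-R1ENZR against 1.96 in CWR-R1, and at 0.774 in the library labelled VCaPENZR against 465 in VCaP. HOXB13 (34.8 against 712) and FOLH1 (26.8 against 1184) were also lower in the library labelled VCaPENZR than in VCaP. Of the other types, none of 4 markers of adrenal cortex was listed in any. Of 5 fibroblast markers, COL1A1 and LUM were listed, with a summed level of 49.4 to 54.0 in C4-2BENZR against 12.3 to 15.1 in C4-2B, where LUM was at 0. That sum was 66.4 in CWR-R1ENZR against 33.8 in CWR-R1, and 17.3 in the library labelled VCaPENZR against 29.5 in VCaP. The 2 genes parted there: COL1A1 was at 63.6 in CWR-R1ENZR against 22.2 in CWR-R1 and at 17.03 in the library labelled VCaPENZR against 8.25 in VCaP, while LUM was at 2.81 in CWR-R1ENZR against 11.6 in CWR-R1 and at 0.238 in the library labelled VCaPENZR against 21.2 in VCaP. Of 4 endothelial markers 1 or 2 were listed, with sums of 3.54 to 3.88 in C4-2BENZR against 7.25 to 7.53 in C4-2B, 27.5 in CWR-R1ENZR against 5.73 in CWR-R1, and 18.6 in the library labelled VCaPENZR against 3.13 in VCaP. Of 4 blood markers, CD68 and HBA1 were listed, with sums of 10.1 to 12.6 in C4-2BENZR against 15.9 to 18.2 in C4-2B, 2.81 in CWR-R1ENZR against 2.70 in CWR-R1 (CD68 alone), and 11.2 in the library labelled VCaPENZR against 2.96 in VCaP. The part of these markers in the results below was not tested.

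In C4-2BENZR, transcripts of HSD17B4, SRD5A1, STS and UGT2B17 were lower and those of UGT2B11 and UGT2B15 higher than in C4-2B. UGT2B17 passed the filter only through C4-2B and UGT2B11 only through C4-2BENZR, so both had to differ. The UGT2B15 call did not hold in every alternative fit. In CWR-R1ENZR, STS and AKR1C2 were at least 2-fold higher and SRD5A3 and UGT2B15 at least 2-fold lower than in CWR-R1. HSD17B4 was lower in each library labelled resistant: 1.38-fold in C4-2BENZR, 1.75-fold in CWR-R1ENZR and 2.09-fold in the library labelled VCaPENZR against VCaP. That last library correlated more with CWR-R1ENZR (0.940) than with VCaP (0.728), and its HSD17B4 level was 136, against 138 in CWR-R1ENZR. Whether its difference arose within the VCaP line was not tested. SRD5A3 was also lower in each: 1.11-fold in C4-2BENZR, where it was not called, 4.49-fold in CWR-R1ENZR and 1.26-fold in the library labelled VCaPENZR. How many of all genes were lower in every comparison was not counted. In bulk RNA, fewer cells with a transcript and less of it per cell cannot be told apart. The levels in every library are drawn in the panels by gene, and the differences in the panels by comparison.

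**Figure D1:**
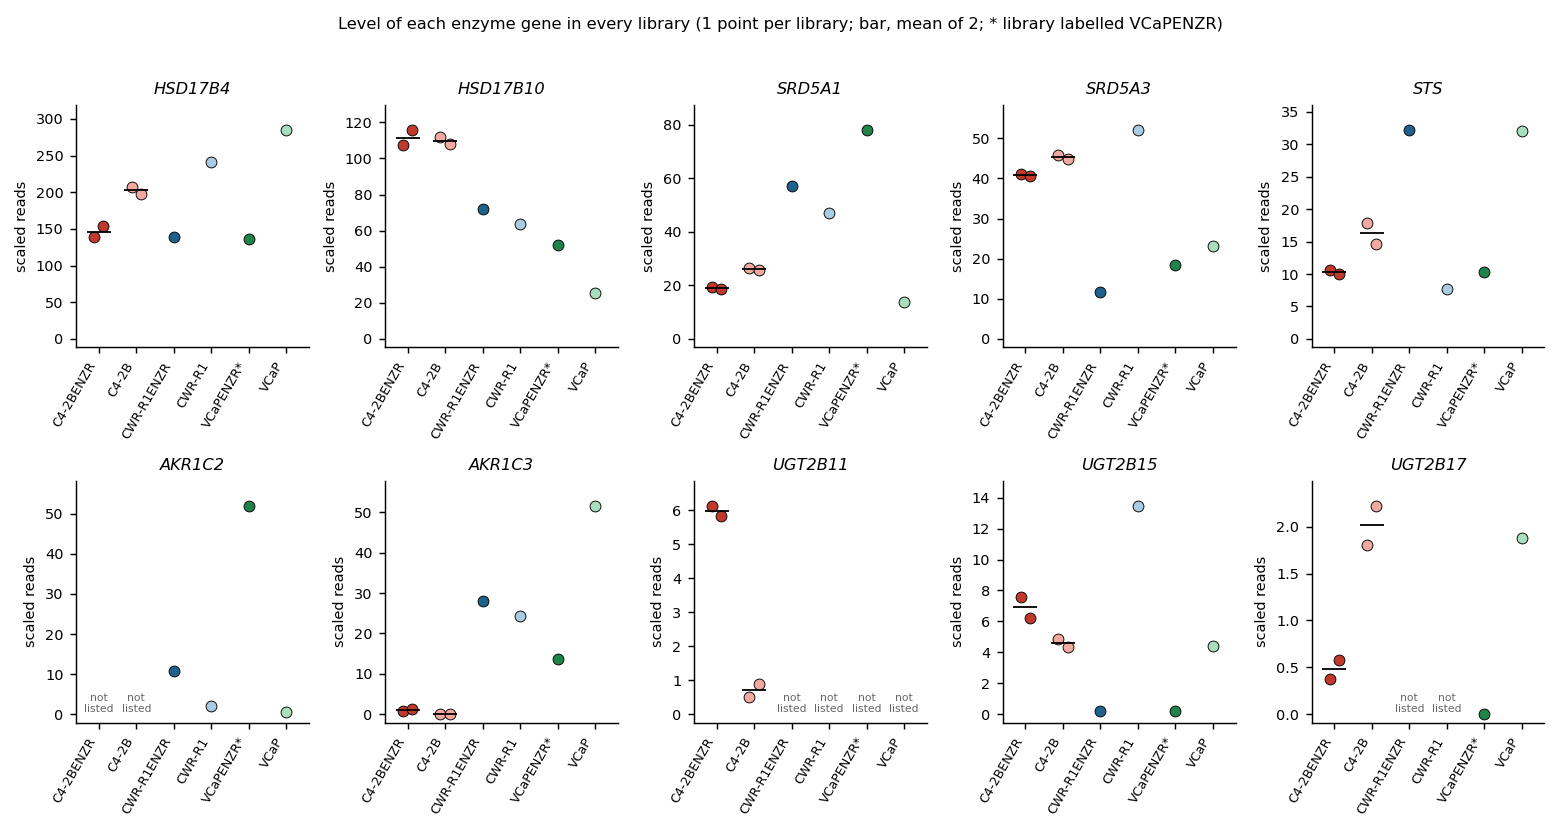
Level of each gene (scaled reads, linear axis from 0) in each of the 8 libraries, 1 point per library, with a bar at the mean of 2 where a group has 2; an asterisk marks the library labelled VCaPENZR, and genes without a row in a table are marked as not listed. HSD17B4 and SRD5A3 sit lower in each library labelled resistant than in the sensitive libraries of the same table. STS and UGT2B15 differ in direction between lines.

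Of the 10 genes, 8 passed the filter in C4-2B, a level of 1 or more in no fewer than 2 of 4 libraries, and 6 had a limma adjusted p below 0.05, with 2 higher and 4 lower in C4-2BENZR. Among all 13280 genes tested, 56.8% were called, 27.8% higher and 29% lower, so a call alone did not set these enzymes apart. With total reads as the only scaling, the calls over all genes were 4748 higher and 2924 lower, against 3691 higher and 3856 lower with the deposited scaling. UGT2B11 passed the filter only through C4-2BENZR and UGT2B17 only through C4-2B, so these 2 had to differ. The median log2 difference of the 8 genes that passed was -0.29, beside -0.00075 over all genes tested.

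In CWR-R1ENZR, 8 of the 10 genes reached a value of at least 5 in either library, and 2 were at least 2-fold higher and 2 at least 2-fold lower on the log2(value + 1) scale. Over all 12462 genes that reached it, 20.1% were at least 2-fold apart, 9.79% higher and 10.3% lower. In the library labelled VCaPENZR, 7 genes reached that value, 2 were at least 2-fold higher and 3 lower than in VCaP, where 43.1% of 12502 genes were at least 2-fold apart, 21.1% higher and 22% lower. There HSD17B4 was under 2-fold with total reads as the only scaling (log2 -0.96), and its interval reaches below 2-fold; HSD17B10 was over 2-fold with total reads only (1.09) and with a pseudocount of 0.5 (1.01). AKR1C2 reached that value only in the resistant library of each pair and UGT2B15 only in CWR-R1, so their being apart follows in part from the filter, and the counts support nothing by themselves. With 1 library per group these differences have no replicate check, and their 95% intervals (Clopper-Pearson) cover counting error only. The difference between the change in CWR-R1 and the change in C4-2B was tested with limma for 7 genes and called for 5, 2 with a positive and 3 with a negative difference, against 54.8% of 13160 genes (26.8% positive and 28% negative). Its spread comes from the C4-2B replicates alone, and the single CWR-R1 libraries are assumed to vary like them. This holds for every SE and p-value of that difference given below, and none of them measures the spread between CWR-R1 libraries.

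**Figure D2:**
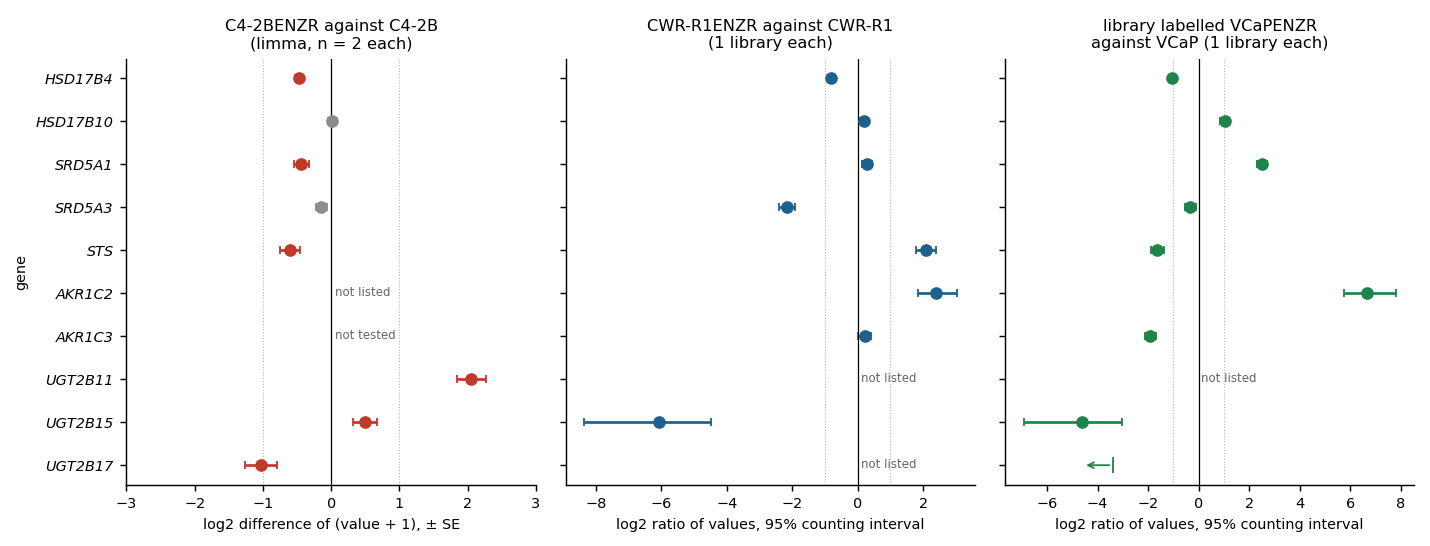
Difference of each gene between the resistant and the sensitive line: left, log2 difference of (value + 1) with its SE from limma (n = 2 each, coloured where the adjusted p is below 0.05); middle and right, log2 ratio of plain values with the 95% counting interval (1 library each). Dotted lines mark 2-fold, and an arrow marks a bound. UGT2B11 has the highest difference in C4-2BENZR, UGT2B15 the lowest ratio in CWR-R1ENZR and AKR1C2 the highest ratio in the library labelled VCaPENZR. On the left, UGT2B11 passed the filter through C4-2BENZR alone and UGT2B17 through C4-2B alone, so both had to differ.

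The 17beta-hydroxysteroid dehydrogenases were the most abundant of these enzymes per exon base. HSD17B4, a peroxisomal enzyme that oxidizes estradiol and long fatty acids, fell in C4-2BENZR. Its levels were 138 and 154 in the C4-2BENZR libraries and 207 and 198 in the C4-2B libraries, which did not overlap (146 ± 11.1 against 202 ± 6.395, SD, n = 2 each; log2 difference -0.47, SE 0.060, limma adjusted p = 5.86e-06). In CWR-R1ENZR it was at 138, against 242 in CWR-R1, 1.75-fold lower (95% interval 1.66 to 1.85). It was at 136 in the library labelled VCaPENZR, against 285 in VCaP, 2.09-fold lower (1.99 to 2.20). The change in CWR-R1 was lower than that in C4-2B, with a log2 difference between them of -0.33 (SE 0.10, limma adjusted p = 0.0165). That difference was not called without C4-2BENZR replicate 2 (adjusted p = 0.0981) or without C4-2B replicate 2 (0.0739).

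HSD17B10, a mitochondrial dehydrogenase that oxidizes branched-chain fatty acids and is a subunit of mitochondrial RNase P, had overlapping groups in the C4-2B lineage. It was at 107 and 116 in C4-2BENZR and at 112 and 108 in C4-2B (log2 difference 0.02, SE 0.062, limma adjusted p = 0.809). It was at 72.2 in CWR-R1ENZR against 63.8 in CWR-R1, 1.13-fold higher (1.04 to 1.24). In the library labelled VCaPENZR it was at 52.2, against 25.7 in VCaP, a plain ratio of 2.03 (1.81 to 2.28) that lies just under the 2-fold threshold on the log2(value + 1) scale, at 0.996. The changes in CWR-R1 and C4-2B differed by 0.16 (SE 0.11, limma adjusted p = 0.244). Per kilobase of exon (GENCODE v29), HSD17B10 ranked first of the listed genes in every group but VCaP, with 116 in C4-2BENZR and 114 in C4-2B, and HSD17B4 ranked first in VCaP, with 73.5 against 26.7 for HSD17B10.

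The 5alpha-reductase genes differed in direction in CWR-R1ENZR. SRD5A1, which converts testosterone to dihydrotestosterone and is the main isozyme of castration-resistant cells, fell in C4-2BENZR to 19.2 and 18.8, against 26.4 and 25.8 in C4-2B, with no overlap (19.0 ± 0.332 against 26.1 ± 0.373, SD, n = 2 each; log2 difference -0.44, SE 0.11, limma adjusted p = 0.00260). Without C4-2BENZR replicate 2 the adjusted p was 0.0501. In CWR-R1ENZR its level was 57.0, against 47.0 in CWR-R1, 1.21-fold higher (1.10 to 1.34). The library labelled VCaPENZR had 77.9, against 13.7 in VCaP, 5.70-fold higher (4.97 to 6.57). SRD5A1 was thus higher in the CWR-R1ENZR library than in its partner and lower in both C4-2BENZR libraries, and the changes differed by 0.71 on the log2 scale (SE 0.16, limma adjusted p = 0.00226). SRD5A2, the isozyme of normal prostate stroma, was listed in no table.

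SRD5A3, which reduces polyprenol in the synthesis of dolichol for protein glycosylation and was named for 5alpha-reductase activity, was at 41.1 and 40.5 in C4-2BENZR and at 45.7 and 44.8 in C4-2B. The groups did not overlap, yet the difference missed the threshold (log2 difference -0.15, SE 0.081, limma adjusted p = 0.137). In CWR-R1ENZR it stood at 11.6, against 52.0 in CWR-R1, 4.49-fold lower (3.80 to 5.32). It was at 18.5 in the library labelled VCaPENZR, against 23.2 in VCaP, 1.26-fold lower (1.08 to 1.46). The change in CWR-R1 was lower than that in C4-2B, a log2 difference of -1.93 (SE 0.15, limma adjusted p = 2.46e-07).

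STS, which removes sulfate from dehydroepiandrosterone sulfate and estrone sulfate, fell in C4-2BENZR and was higher in CWR-R1ENZR. It was at 10.6 and 10.02 in C4-2BENZR and at 17.9 and 14.6 in C4-2B, without overlap (10.3 ± 0.401 against 16.3 ± 2.30, SD, n = 2 each, 1.58-fold lower; log2 difference -0.61, SE 0.14, limma adjusted p = 0.00185). Without C4-2BENZR replicate 2 the adjusted p was 0.0604. In CWR-R1ENZR it was at 32.2, against 7.62 in CWR-R1, 4.22-fold higher (3.43 to 5.23). The library labelled VCaPENZR had 10.4, against 32.1 in VCaP, 3.10-fold lower (2.61 to 3.69). The changes in CWR-R1 and C4-2B differed by 2.55 on the log2 scale (SE 0.24, limma adjusted p = 1.68e-06), the highest of the 7 differences tested.

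AKR1C2 and AKR1C3 lie close together on chromosome 10 with AKR1C1 and are close copies, so that reads may be shared among them. Over 969 aligned coding bases (GENCODE v29) AKR1C2 and AKR1C1 were 98.04% identical, with 19 differences, and AKR1C3 was 91.0% identical to AKR1C2 and 91.4% to AKR1C1. Of the 150-base windows of AKR1C2, the length of 1 sequenced end, 4.63% occurred unchanged in AKR1C1; how reads common to copies were assigned is not stated in the labels or files. The 90 coding bases 73 to 162, counted from the start codon, are shown because they hold the most differences, 10, that separate AKR1C2 from AKR1C1. Capitals mark the differing bases.
AKR1C2: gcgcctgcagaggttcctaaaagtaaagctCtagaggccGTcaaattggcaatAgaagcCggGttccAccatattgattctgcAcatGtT
AKR1C1: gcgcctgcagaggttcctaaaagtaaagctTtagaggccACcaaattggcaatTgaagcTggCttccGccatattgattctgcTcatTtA

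AKR1C2, which reduces dihydrotestosterone to androstanediol, was higher in both resistant libraries where it was listed, and it has no value in the C4-2B table. Those 2 resistant libraries correlated with each other at 0.940. AKR1C2 reached a level of 5 only in the resistant library of each pair, so its being apart follows in part from the filter. It was at 10.7 in CWR-R1ENZR (160 reads), against 2.02 in CWR-R1 (30 reads), 5.30-fold higher (3.57 to 8.11). The library labelled VCaPENZR held 52.0 (874 reads), against 0.512 in VCaP (9 reads), 102-fold higher (53.3 to 223). AKR1C1, its nearest copy, which inactivates progesterone, was at 10.5 in CWR-R1ENZR against 6.005 in CWR-R1, and at 28.5 in the library labelled VCaPENZR against 4.44 in VCaP. Of the reads of the 3 copies, AKR1C2 held 21.7% in CWR-R1ENZR (18.8% to 24.9%, Clopper-Pearson), against 6.25% in CWR-R1 (4.26% to 8.80%). It held 55.2% in the library labelled VCaPENZR (52.7% to 57.6%), against 0.905% in VCaP (0.414% to 1.71%). Summed over the 3 copies, the log2 ratio was 0.59 in CWR-R1ENZR and 0.73 in the library labelled VCaPENZR, both under 2-fold.

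AKR1C3, which reduces androstenedione to testosterone and also makes prostaglandins, was near its limit of detection in the C4-2B lineage. It had 19 and 24 reads in the C4-2BENZR libraries (levels 0.898 and 1.39) and no read in either C4-2B library, so that it was at least 7.38-fold higher in C4-2BENZR against a floor of 3 reads per library. It failed the filter and was therefore not tested; with no filter its log2 difference was 1.09 (limma adjusted p = 0.00256). It was at 28.1 in CWR-R1ENZR, against 24.4 in CWR-R1, 1.16-fold higher (1.00 to 1.33). In the library labelled VCaPENZR it was at 13.8, against 51.7 in VCaP, 3.76-fold lower (3.25 to 4.36), while AKR1C2 was higher. The changes in CWR-R1 and C4-2B differed by -0.89 (SE 0.37, limma adjusted p = 0.0555); edgeR on recovered reads gave an adjusted p of 3.20e-05 for it a pseudocount of 0.5 gave 0.0178, and leaving out C4-2BENZR replicate 1 gave 0.0429. AKR1C3 held 57.0% of the reads of the 3 copies in CWR-R1ENZR against 75.2% in CWR-R1, and 14.6% in the library labelled VCaPENZR against 91.3% in VCaP, as the stacked levels of the copies show.

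**Figure D3:**
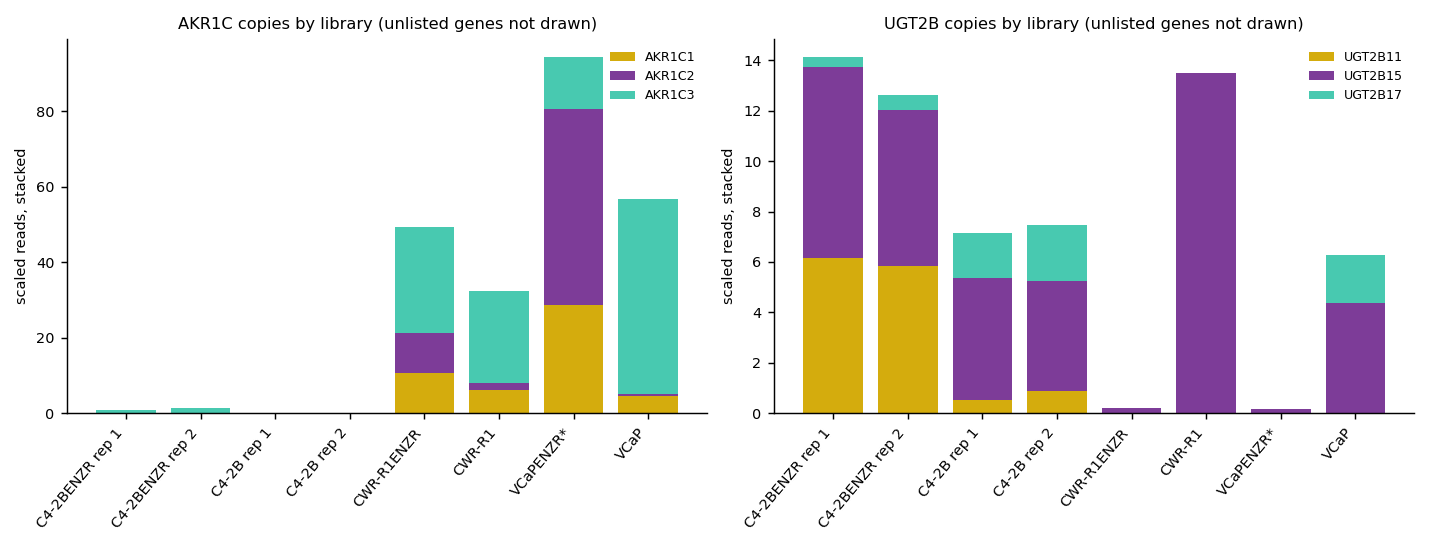
Stacked levels (scaled reads) of the AKR1C copies, left, and of UGT2B11, UGT2B15 and UGT2B17, right, in each library; genes without a row in a table are not drawn, and an asterisk marks the library labelled VCaPENZR. AKR1C2 makes up the largest part of the AKR1C bar in the library labelled VCaPENZR and a thin part in VCaP, and UGT2B11 is a large part of the UGT2B bars in C4-2BENZR and a thin part in C4-2B.

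The start regions of AKR1C2 and AKR1C3 are shown because these neighbours differed in direction in the library labelled VCaPENZR. Each run holds the 300 bases around the RefSeq start (GRCh38.p14), from the minus strand at chr10:5003808-5004107 for AKR1C2 and the plus strand at chr10:5094164-5094463 for AKR1C3. Over 279 aligned bases they were 81.0% identical, and capitals mark their longest shared run, 19 bases. The AKR1C2 and AKR1C1 start regions were 98.6% identical over 292 bases.
AKR1C2 start region: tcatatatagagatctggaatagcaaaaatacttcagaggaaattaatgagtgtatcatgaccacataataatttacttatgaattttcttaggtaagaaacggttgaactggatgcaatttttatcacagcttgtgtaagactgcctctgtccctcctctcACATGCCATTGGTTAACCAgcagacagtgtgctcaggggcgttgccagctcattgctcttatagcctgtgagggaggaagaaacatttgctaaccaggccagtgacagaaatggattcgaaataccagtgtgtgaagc
AKR1C3 start region: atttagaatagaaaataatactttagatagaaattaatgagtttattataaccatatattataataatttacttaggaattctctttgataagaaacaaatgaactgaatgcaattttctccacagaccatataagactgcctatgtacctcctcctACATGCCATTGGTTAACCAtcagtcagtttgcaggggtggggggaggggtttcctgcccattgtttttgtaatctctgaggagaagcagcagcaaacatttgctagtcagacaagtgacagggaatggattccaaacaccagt

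The UGT2B genes lie on chromosome 4 and are likewise copies. UGT2B15 and UGT2B17 were 96.5% identical over 1590 aligned coding bases, with 55 differences, and 6.52% of the 150-base windows of UGT2B15 occurred unchanged in UGT2B17. UGT2B11 was 84.8% identical to UGT2B15 and 97.0% to UGT2B28. The stretch of 90 coding bases from 356 to 445 is shown because it holds the most differences, 11, by which reads of UGT2B15 and UGT2B17 can be told apart. Capitals mark the differing bases.
UGT2B15: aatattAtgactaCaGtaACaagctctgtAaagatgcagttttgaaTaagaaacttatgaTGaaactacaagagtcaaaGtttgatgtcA
UGT2B17: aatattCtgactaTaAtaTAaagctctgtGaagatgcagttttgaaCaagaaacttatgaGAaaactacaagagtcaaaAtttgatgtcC

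UGT2B11, which conjugates hydroxylated fatty acids, had the highest difference of these genes in C4-2BENZR. It was at 6.14 and 5.85 in C4-2BENZR (130 and 101 reads) and at 0.516 and 0.880 in C4-2B (10 and 17 reads), so the groups lay far apart (5.996 ± 0.208 against 0.698 ± 0.257, SD, n = 2 each, 8.59-fold higher; log2 difference of value + 1 of 2.05, SE 0.21, limma adjusted p = 4.74e-07). Summed with UGT2B28, its nearest copy, the log2 difference was 1.88 (limma adjusted p = 5.09e-07). UGT2B11 passed the filter only through C4-2BENZR and so had to differ, and its p-value supports nothing by itself. It has no value in the CWR-R1 and VCaP tables.

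UGT2B15 and UGT2B17, which conjugate dihydrotestosterone and androstanediol, differed in opposite directions in C4-2BENZR. UGT2B15 rose to 7.61 and 6.20 in C4-2BENZR, against 4.85 and 4.35 in C4-2B, without overlap (6.90 ± 0.998 against 4.598 ± 0.354, SD, n = 2 each; log2 difference 0.49, SE 0.18, limma adjusted p = 0.0275). The adjusted p was above 0.05 with C4-2BENZR replicate 1 left out (0.207), with C4-2BENZR replicate 2 left out (0.0570), with C4-2B replicate 2 left out (0.111) and with DESeq2 (0.0900). UGT2B17 fell to 0.378 and 0.579 in C4-2BENZR (8 and 10 reads), against 1.81 and 2.23 in C4-2B (35 and 43 reads), 4.21-fold lower (log2 difference of value + 1 of -1.03, SE 0.23, limma adjusted p = 0.00131). It passed the filter only through C4-2B and so had to differ, and that p-value supports nothing by itself. UGT2B17 held 4.73% and 8.55% of the reads of the pair in C4-2BENZR (95% intervals 2.07% to 9.11% and 4.17% to 15.2%), against 27.1% and 33.9% in C4-2B (19.7% to 35.7% and 25.7% to 42.8%). Summed over the pair, the levels were 7.99 and 6.78 in C4-2BENZR and 6.65 and 6.57 in C4-2B, a log2 difference of 0.13 (SE 0.17, limma adjusted p = 0.514). The summed pair did not pass the test. The shares of its copies did not overlap between the groups. As UGT2B17 passed the filter only through C4-2B, that follows in part from the filter and supports nothing by itself.

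In the other lines UGT2B15 had 3 reads in each resistant library. It was at 0.201 in CWR-R1ENZR (3 reads), against 13.5 in CWR-R1 (200 reads), 67.1-fold lower with a counting interval of 22.6 to 328. The library labelled VCaPENZR also had 3 reads (0.179), against 4.38 in VCaP (77 reads), 24.5-fold lower (8.09 to 122) and below the minimum level for the 2-fold count. UGT2B17 had no read in the library labelled VCaPENZR and 33 in VCaP (1.88), at least 10.5-fold lower against a floor of 3 reads, and has no value in the CWR-R1 table. The change of UGT2B15 in CWR-R1 was lower than that in C4-2B, a log2 difference of -4.09 (SE 0.33, limma adjusted p = 3.46e-07), the lowest of the 7 differences.

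Markers of liver and intestine, where UGT2B enzymes are abundant, were lower in sum where UGT2B15 was lower, but not each of them. Of 9 such markers 3 were listed in the CWR-R1 table, all 3 lower in CWR-R1ENZR, with a summed level of 8.91 in CWR-R1ENZR against 258 in CWR-R1, and ALB (albumin) was at 0.0670 in CWR-R1ENZR against 191 in CWR-R1. The VCaP table listed 5, with a sum of 12.3 in the library labelled VCaPENZR against 95.3 in VCaP; CDX2 and TTR were at 0 in the library labelled VCaPENZR. VIL1, which encodes villin, went the other way there, at 11.4 in the library labelled VCaPENZR (192 reads) against 0.114 in VCaP (2 reads), and made up most of that library's sum. The C4-2B table listed 4, with a sum of 5.245 to 6.66 in C4-2BENZR and 3.92 to 4.19 in C4-2B; among them APOA1 was at 0.992 and 0.927 in C4-2BENZR against 1.44 and 1.45 in C4-2B. Their part in the UGT2B15 differences was not tested.

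UGT2B11 and UGT2B15 were both higher in C4-2BENZR. UGT2B11 passed the filter only through C4-2BENZR and so had to differ, and the UGT2B15 call did not hold in every alternative fit. Their start regions are shown because of these differences, and shared regulation was not tested. They are the 300 bases around the RefSeq start (GRCh38.p14) on the minus strand, at chr4:69214699-69214998 for UGT2B11 and chr4:68670603-68670902 for UGT2B15. Over 281 aligned bases they were 79.4% identical, and capitals mark the longest shared run, 25 bases.
UGT2B11 start region: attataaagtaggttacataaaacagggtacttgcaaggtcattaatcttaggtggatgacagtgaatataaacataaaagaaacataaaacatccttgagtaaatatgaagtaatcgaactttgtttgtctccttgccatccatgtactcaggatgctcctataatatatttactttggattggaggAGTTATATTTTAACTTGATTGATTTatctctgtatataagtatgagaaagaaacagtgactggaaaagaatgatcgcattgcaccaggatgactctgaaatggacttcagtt
UGT2B15 start region: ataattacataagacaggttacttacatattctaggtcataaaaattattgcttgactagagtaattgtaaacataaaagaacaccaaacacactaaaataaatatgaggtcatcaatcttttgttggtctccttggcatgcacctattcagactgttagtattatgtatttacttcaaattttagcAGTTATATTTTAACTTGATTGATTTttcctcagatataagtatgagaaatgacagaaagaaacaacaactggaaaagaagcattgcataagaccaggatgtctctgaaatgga

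Short motifs of 3 kinds were searched on both strands of the start regions of AKR1C2, AKR1C3, UGT2B11 and UGT2B15. AGAACA, a repeat unit of the androgen response element, occurred once in UGT2B15, from base -172 relative to the start, and in 14.8% of 35116 RefSeq start regions. The forkhead motif TGTTTAC occurred once in UGT2B15, from base -183, and in 3.42% of start regions, without overlap with AGAACA. The core of the antioxidant response element, TGACNNNGC, occurred once in UGT2B11, from base -217, and in 13.3% of start regions. AKR1C2 and AKR1C3 held none of the 3. A match describes these letters, not a bound site.

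The library labelled VCaPENZR was set beside CWR-R1ENZR as well as VCaP. Of the 6 genes listed in all 3 tables with a level of 5 or more in at least 1 of these 3 libraries, 4 (HSD17B4, HSD17B10, SRD5A1 and AKR1C3) had a log2 level nearer to CWR-R1ENZR and 2 (SRD5A3 and STS) nearer to VCaP, against 71% of 11972 genes listed in all 3 tables nearer to CWR-R1ENZR. AKR1C2, left out because the C4-2B table does not list it, was at 52.0 in the library labelled VCaPENZR, 10.7 in CWR-R1ENZR and 0.512 in VCaP. HSD17B4 was at 136 in the library labelled VCaPENZR and at 138 in CWR-R1ENZR, and UGT2B15 had 3 reads in each. STS lay below both at almost the same distance, 1.55 log2 units below CWR-R1ENZR and 1.54 below VCaP. Whether the VCaP differences above arose within the VCaP line was not tested.

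Other genes of androgen supply, conversion, conjugation and uptake were counted from a list of 57, of which 38 were listed in any table. CYP17A1, HSD3B1 and HSD3B2, which make androgens from cholesterol, were among the 19 that were not. In C4-2BENZR 14 of 26 tested were called, 6 higher and 8 lower, with a median log2 difference of 0.03, against 56.8% of all genes called, a share near that of the list. The uptake carrier gene SLCO3A1 rose to 15.4 and 15.6 in C4-2BENZR, against 1.65 and 2.02 in C4-2B (8.45-fold; log2 difference 2.54, limma adjusted p = 3.47e-09). SULT2B1, which sulfates hydroxysteroids such as cholesterol and pregnenolone, fell to 6.57 and 7.53 in C4-2BENZR, against 19.0 and 19.4 in C4-2B (2.72-fold; log2 difference -1.33, limma adjusted p = 7.45e-07). These were the listed genes at least 2-fold apart with a level of at least 5, which SLCO3A1 reached only in C4-2BENZR. That SLCO3A1 is named thus follows in part from this rule.

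By role, glucuronidation genes counted 1 higher and 0 lower of 3 tested in C4-2BENZR, sulfation genes 2 higher and 2 lower of 4, 17beta- and 11beta-dehydrogenases 1 higher and 2 lower of 9, supply and cofactor genes 1 higher and 3 lower of 8, and uptake genes 1 higher and 1 lower of 2, where 27.8% of all genes were called higher and 29% lower. The higher dehydrogenase gene was HSD17B14, at 2.17 and 1.27 in C4-2BENZR against 0.0516 and 0 in C4-2B; it passed the filter only through C4-2BENZR and so had to differ. The glucuronidation gene was UGDH, which makes the UDP-glucuronic acid that the UGT2B enzymes use. It was at 108 and 121 in C4-2BENZR and at 66.1 and 73.6 in C4-2B (1.63-fold higher; log2 difference 0.70, limma adjusted p = 5.58e-07), and it and HSD17B14 were chosen after their values were seen. UGDH was at 633 in CWR-R1ENZR against 924 in CWR-R1, 1.46-fold lower (1.42 to 1.499), and at 727 in the library labelled VCaPENZR against 126 in VCaP, 5.74-fold higher (5.49 to 6.01).

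In CWR-R1ENZR 6 of 26 of these genes were at least 2-fold apart, near the 20.1% of all genes. The 3 higher were STARD3, a cholesterol transporter of endosomes (74.8 against 33.3), PAPSS2, which makes the sulfate donor (49.4 against 16.5), and the carrier gene SLCO4A1 (75.5 against 25.5), values of CWR-R1ENZR against CWR-R1. The 3 lower were CYB5A, whose cytochrome b5 aids androgen formation by CYP17A1 (28.8 against 82.7), HSD17B8 (11.1 against 41.1), and HSD11B2, which inactivates cortisol (32.8 against 104). Of 27 genes in the VCaP table, 18 were at least 2-fold apart between the library labelled VCaPENZR and VCaP, 9 in each direction, against 43.1% of all genes (21.1% higher and 22% lower). Of the 18, AKR1C1, HSD17B6, HSD17B14, SULT2B1 and UGT1A1 reached the minimum level in 1 library only. The higher were STARD3, FDXR, HSD17B8, HSD11B2, AKR1C1, SULT2B1, UGDH, UGP2 and SLCO4A1, and the lower FDX1, H6PD, HSD17B6, HSD17B14, PAPSS2, SUMF1, SULT1A1, UGT1A1 and SLC35D1. HSD17B6, which oxidizes androstanediol back to dihydrotestosterone, was at 3.33 in the library labelled VCaPENZR against 33.4 in VCaP. UGT1A1, whose reads other UGT1A genes may share, was at 0.179 (3 reads) there against 95.4 in VCaP. The plot of the pathway genes gives all of them.

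**Figure D4:**
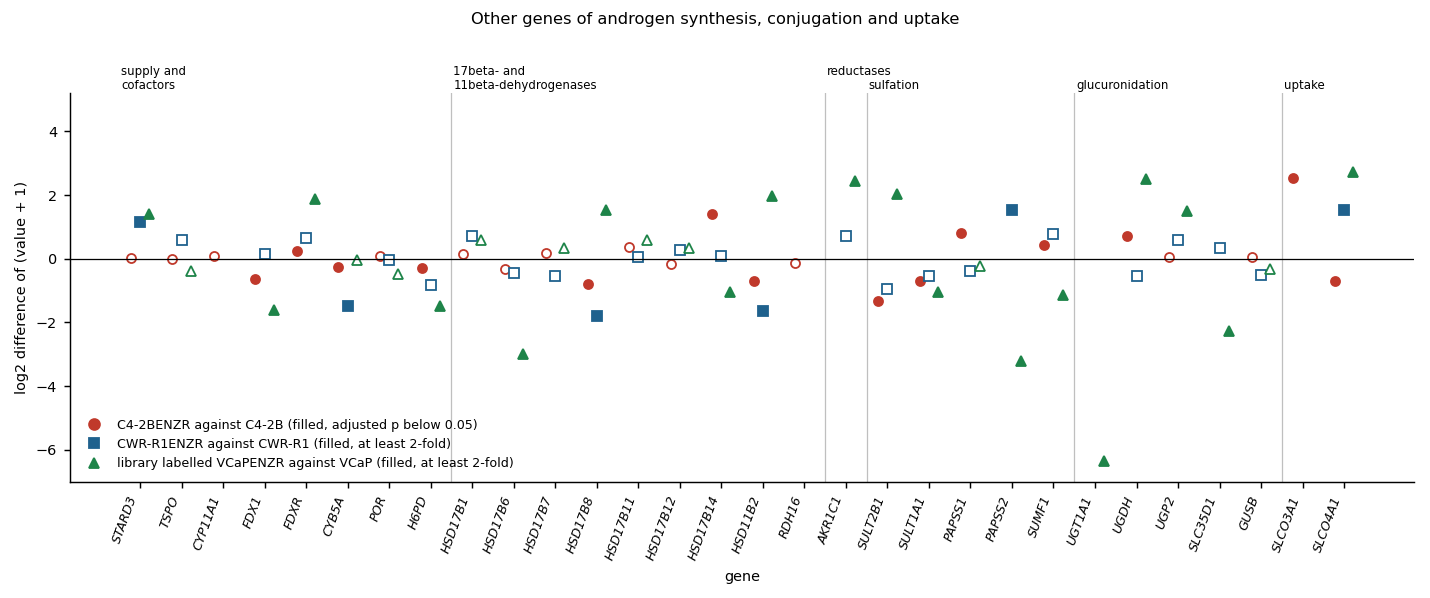
Log2 difference of (value + 1) for each other gene of the pathway that passed a filter, by role, in C4-2BENZR against C4-2B (circles), CWR-R1ENZR against CWR-R1 (squares) and the library labelled VCaPENZR against VCaP (triangles); filled symbols passed the limma adjusted p of 0.05 (C4-2B) or differed at least 2-fold (the others, untested). SLCO3A1 is the highest circle at 2.54 and SULT2B1 a low one at -1.33.

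The genes whose log2 levels followed each enzyme most closely over the 8 libraries were found among 11514 genes, as a description in which the libraries of a line share their source and the tables their scaling. They were LYPLA1 (Pearson r 0.984) and GLYCTK (0.981) for HSD17B4, and ACLY (0.997) and TBC1D24 (0.991) for HSD17B10. For SRD5A1 they were CDIPT (0.994) and LHPP (0.990), for SRD5A3 TTC26 (0.998) and NUP205 (0.989), and for STS TINF2 (0.982) and LRFN3 (0.978). AKR1C3 was followed by CNOT6L (0.999) and FUZ (0.996), and UGT2B15 by TSFM (0.987) and ALG10B (0.986). Each r is among the highest of 11514 over only 8 libraries, so that high values follow from the search. Shared regulation was not tested.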

How the data were processed

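RNA was purified on columns with DNase I digestion, and polyadenylated RNA was read as 150-base paired ends, per the labels. The authors deposited 1 table per line, which gives each gene a signal value in each library (reads divided by a scaled library size) and columns of fold (a score) and p-value that were not used. Per the submitters' processing notes, the authors used hg19. Their aligner, counter and handling of reads common to copies were not given in the sources used here. Within 0.02 reads, 100% of the deposited signal values in each library came out as whole numbers of reads, which were recovered. Reads per library were 14503586 to 20248655, and 3 reads make a level of 0.142 to 0.202. Intervals and floors cover counting error alone, as PCR reads lacking molecular identifiers are not independent.

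The main test was limma 3.58.1 (trend, R 4.3.3) on log2(value + 1) in genes that reached 1 in 2 or more libraries, two-sided, with Benjamini-Hochberg adjustment over all genes and a threshold of 0.05. It was first tested on simulated data. This scale understates the change of low genes. CWR-R1 and VCaP were counted at 2-fold, untested, in genes that reached 5 in either library. Replicates are labelled biological with no origin given, so p-values cover the spread between these libraries, which exceeded counting error (chi-square per gene of 3.99 between C4-2BENZR libraries, 5.67 between C4-2B libraries). Named genes were the 10 members, other pathway genes at least 2-fold apart that reached 5 in a library, and the 2 genes of highest r per member; UGDH, HSD17B14 in C4-2B and neighbouring genes were added after their values were seen. Members and lists were chosen with earlier results of these data known. Alternatives were other scalings, pseudocounts, filters and thresholds, summed copies, edgeR 4.0.16 and DESeq2 1.42.0 on recovered reads, a replicate block and each replicate left out. Start regions are from RefSeq, coding sequences (1 transcript per gene) and exon lengths from GENCODE v29, aligned with Biopython 1.88. Figures were drawn with matplotlib 3.10.9.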

Additional observations from a re-analysis of the deposited data

Results flagged for a closer look

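The change in CWR-R1 and the change in C4-2B differed by test (limma adjusted p below 0.05) for 5 of 7 genes, where 54.8% of 13160 genes did, with 1 library per CWR-R1 group and 2 per C4-2B group. The log2 differences, CWR-R1 change minus C4-2B change, were 2.55 for STS, 0.71 for SRD5A1, -0.33 for HSD17B4, -1.93 for SRD5A3 and -4.09 for UGT2B15. That of HSD17B4 was not called without C4-2BENZR replicate 2 (limma adjusted p = 0.0981) or without C4-2B replicate 2 (0.0739).

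Opposite directions, not tested because VCaP has 1 library per group, were seen between the library labelled VCaPENZR against VCaP and another line. SRD5A1 had a log2 ratio of 2.43 there and was lower in both C4-2BENZR libraries than in C4-2B. STS had -1.54 there and was higher in CWR-R1ENZR than in CWR-R1. AKR1C3 had -1.84 there and was higher in C4-2BENZR (19 and 24 reads) than in C4-2B (0 reads), where it failed the filter. In CWR-R1ENZR it was only 1.16-fold higher than in CWR-R1, with a counting interval of 1.00 to 1.33. UGT2B15 had -2.19 there and was higher in C4-2BENZR than in C4-2B. The doubt over the label of that library applies to these values.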

How the results depend on the processing

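The members higher in C4-2BENZR numbered 2, and 1 with DESeq2, with copies summed or at a threshold of 1.5-fold; the members lower numbered 4, and 3 with copies summed and 2 at 1.5-fold. Leaving out each replicate gave 1 to 2 higher and 2 to 4 lower, and 5083 to 6517 calls over all genes against 7547. HSD17B10, not called in any of these fits, ranged from -0.035 to 0.074 on the log2 scale as replicates were left out, with a changed sign without C4-2BENZR replicate 2 (-0.035) and without C4-2B replicate 2 (-0.0073). With copies summed, the members at least 2-fold higher numbered 1 in CWR-R1ENZR and 1 in the library labelled VCaPENZR, against 2 in each; with no filter on low values, 5 were lower in the library labelled VCaPENZR, against 3. Sums hold fewer genes and no filter admits more, by construction. At 1.5-fold, 4963 genes of CWR-R1 were apart against 2507 at 2-fold, and of the C4-2B calls 3111 reached 1.5-fold. Same-numbered deviations correlated at 0.0502 over 13280 genes, so the numbers were not taken to pair the samples; the replicate block gave 8248 calls over all genes and the same counts of members, 2 higher and 4 lower. A replicate block could not be had for CWR-R1 or VCaP, with 1 library per group. Over the alternatives, the adjusted p of AKR1C3 in the test between lines ranged from 3.20e-05 to 0.554. Levels near 3 reads, as of UGT2B15 in CWR-R1ENZR, are limited by depth.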

Other observations

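The genes listed next to the members were read after their values were seen and were not tested beyond the fits above. Only genes with a level of 5 or more in a library of the table were taken as neighbours, other members left out. STS fell in C4-2BENZR (log2 difference -0.61) while VCX3A (4.25), VCX (6.06), VCX2 (3.30) and VCX3B (2.99), near-identical testis genes listed close to it, were higher in C4-2BENZR; reads may be shared among them. In the library labelled VCaPENZR against VCaP, VCX3A (5.38), VCX (3.32) and VCX3B (5.24) were higher on the log2 scale and STS was lower (-1.54). SRD5A3 was lower in CWR-R1ENZR (-2.07). Among genes that reached that level, its nearest on either side were PDGFRA, a growth factor receptor gene, at -8.28, and TMEM165, at 0.35. Genes below that level may lie between them.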
